A study of Homo sapiens with 21 samples.

Results

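Genes that extracellular signal-regulated kinase (ERK) induces, namely genes that restrain its pathway and ETS factors, were followed through RNA-seq of PC-9 cells. They were 10 of the 20111 genes listed. They were taken by symbol from both tables of expression values and comprise the phosphatases DUSP4, DUSP5 and DUSP6, the Sprouty genes SPRY1, SPRY2 and SPRY4, the Sprouty-related genes SPRED1 and SPRED2, and the ETS transcription factors ETV4 and ETV5. PC-9 is an established lung adenocarcinoma cell line, and all groups share its activating EGFR deletion (delE746-A750, whose last residue number rises from sample to sample in the labels and was read as 1 genotype). EGFR-low and EGFR-high cells were populations, not clones, obtained from parental PC-9 cells by 6 rounds of sorting for the 5 to 10% of cells with the lowest or highest surface EGFR. In the first experiment, untreated EGFR-low, EGFR-high and parental cells were collected 24 h after seeding. In the second, EGFR-low and EGFR-high cells were exposed for 72 h to DMSO, the solvent, or to 1 µM vorinostat, an inhibitor of histone deacetylases, and parental cells were not part of it. Each of the 7 groups had 3 replicates.

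EGFR signals through RAS, RAF and MEK to ERK, which enters the nucleus and switches on genes that dampen the same pathway. DUSP4, DUSP5 and DUSP6 remove the activating phosphates from ERK. DUSP6 acts on ERK in the cytoplasm and DUSP5 in the nucleus, where DUSP4 acts on ERK and also on the stress kinases JNK and p38. Sprouty and SPRED proteins act further upstream at the level of RAS and RAF. ETV4 and ETV5 are transcription factors that carry ERK signals to their own targets. In EGFR-mutant lung cancer cells, RNA of these genes is widely used as a readout of ERK output.

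Promoter sequences from RefSeq (GRCh38.p14) were found for 6 of the 10 genes (DUSP6, SPRY1, SPRY2, SPRY4, SPRED1 and SPRED2). Those of SPRY1, SPRY2 and SPRED2 are shown because these genes moved in opposite directions between EGFR-low and EGFR-high cells treated with DMSO. Each sequence lies upstream of the first listed start and outside the exons annotated for the gene, and it is written on the strand of the gene with any motif match in capitals. The SPRY1 stretch is chr4:123396545-123396794 (plus strand), the SPRY2 stretch is chr13:80341127-80341376 (minus strand) and the SPRED2 stretch is chr2:65432638-65432849 (minus strand).
SPRY1: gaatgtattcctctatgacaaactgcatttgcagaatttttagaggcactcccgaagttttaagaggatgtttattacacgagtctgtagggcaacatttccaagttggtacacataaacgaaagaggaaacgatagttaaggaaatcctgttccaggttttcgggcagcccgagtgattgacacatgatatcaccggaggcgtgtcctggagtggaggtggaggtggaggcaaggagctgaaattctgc
SPRY2: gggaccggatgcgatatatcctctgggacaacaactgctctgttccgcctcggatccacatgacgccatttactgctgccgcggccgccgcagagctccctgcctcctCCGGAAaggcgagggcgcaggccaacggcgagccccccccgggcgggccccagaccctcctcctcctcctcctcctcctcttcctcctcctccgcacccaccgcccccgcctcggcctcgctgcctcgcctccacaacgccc
SPRED2: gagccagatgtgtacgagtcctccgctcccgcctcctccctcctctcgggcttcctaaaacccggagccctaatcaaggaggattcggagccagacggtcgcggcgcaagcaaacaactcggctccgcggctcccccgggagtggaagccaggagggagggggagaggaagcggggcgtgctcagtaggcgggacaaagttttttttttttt

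Motifs were searched on both strands in the 250 bases before each listed start, namely CCGGAA (an ETS site), TGANTCA (an AP-1 site) and TGACGTCA (a cyclic AMP response element), and no matches overlapped. CCGGAA was found in 14.5% of the 35116 promoters of this length, TGANTCA in 6.57% and TGACGTCA in 1.65%. Of the 10 windows listed for the 6 genes, 2 held a match, both of CCGGAA. One began at position -142 from the first listed start of SPRY2, in the capitals shown, and the other at position -67 from the second listed start of SPRY1, which is not shown. The first window of SPRY1 and both windows of SPRED2 held no match to these letters.

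Expression was given in units taken to be FPKM, which scale fragments by transcript length and library. The number of fragments is unknown. The steps between the lowest values placed the shallowest library at 48.3% of the depth of the deepest in the untreated experiment and at 43.2% in the second. All 6 epithelial markers were at 10 FPKM or more in every library. Of the 5 fibroblast markers only COL1A1 reached 1 FPKM in any library (summed level 1.02 to 5.88 FPKM). Of the 2 endothelial markers listed only CDH5 did (summed level 2.23 to 8.30 FPKM). Of the 4 leukocyte markers, PTPRC and CD3E stayed below 1 FPKM throughout, and the summed level was 0.031 to 1.85 FPKM in untreated cells and 0.218 to 10.2 FPKM in the second experiment. Since the samples were bulk RNA, fewer cells with a transcript and less of it per cell cannot be told apart.

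EGFR itself was lower in every EGFR-low library than in every EGFR-high library of the same condition. In untreated cells it was at 60.2, 26.5 and 60.6 FPKM in EGFR-low, at 269, 161 and 243 FPKM in EGFR-high and at 261, 120 and 244 FPKM in parental cells. In the second experiment it was at 43.3, 17.7 and 19.3 FPKM (DMSO) and 19.7, 16.1 and 18.2 FPKM (vorinostat) in EGFR-low cells, against 83.3, 152 and 109 FPKM and 196, 101 and 207 FPKM in EGFR-high cells.

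Some libraries of the second experiment stood apart from their groups. EGFR-low DMSO replicate 1 carried RNA that the other EGFR-low libraries lacked. For 33 genes at 0.1 FPKM or less in the 5 other EGFR-low libraries and at 5 FPKM or more in the EGFR-high libraries (EGFR-high DMSO replicate 3 left aside), it held all 33 at 1 FPKM or more, with a median of 20.2% of the EGFR-high level (interquartile range 18.6 to 22.4%). It was also the deepest library of the experiment, and it held the leukocyte markers LYZ at 7.28 FPKM, CD3E at 0.937 FPKM and PTPRC at 0.805 FPKM. CD14 of the same list did not single out this library (1.21 FPKM) and was at 0.739 to 3.92 FPKM in the EGFR-low libraries of this experiment, above the 0.00948 to 0.60 FPKM of the EGFR-high libraries. Conversely, 79 genes were taken whose highest value in those EGFR-high libraries was at most 5% of their lowest value in the 5 EGFR-low libraries. For these genes EGFR-high DMSO replicate 3, not used in the choice, stood at a median of 25.2% of the EGFR-low level (23.8 to 28.8%). EGFR-high vorinostat replicate 1 was used in the choice, which bounded it at 5%, so that its median of 2.30% is not comparable with 25.2%. The other EGFR-high libraries used in the choice stood at 0.0966 to 0.192%. LYZ was at 2.76 FPKM in EGFR-high DMSO replicate 3 and at 0.538 FPKM or less in the 10 remaining libraries. CD3E was at 0.290 FPKM in EGFR-high DMSO replicate 3 and at 0.0184 FPKM or less in the same 10 libraries. The share of mitochondrial RNA was 22.2% and 24.2% in both vorinostat libraries numbered 1, against 7.27 to 18.6% in the rest. The calls of this experiment are therefore also given without the 2 DMSO libraries and without all libraries numbered 1. The part of these differences, and of the leukocyte markers, in the results was not tested.

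In untreated cells, none of the 10 genes passed the test between EGFR-low and EGFR-high cells (limma on log2(FPKM + 1), Benjamini-Hochberg adjusted p under 0.05), where 3.81% of the 11305 genes tested did. The log2 fold change was below 0 for 9 of the 10 genes, with a median of -0.18 against -0.03 for all genes, and above 0 for DUSP6. At an unadjusted p under 0.05, 1529 of all genes passed. The plot of the untreated libraries shows the values of the 10 genes.

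**Figure D1:**
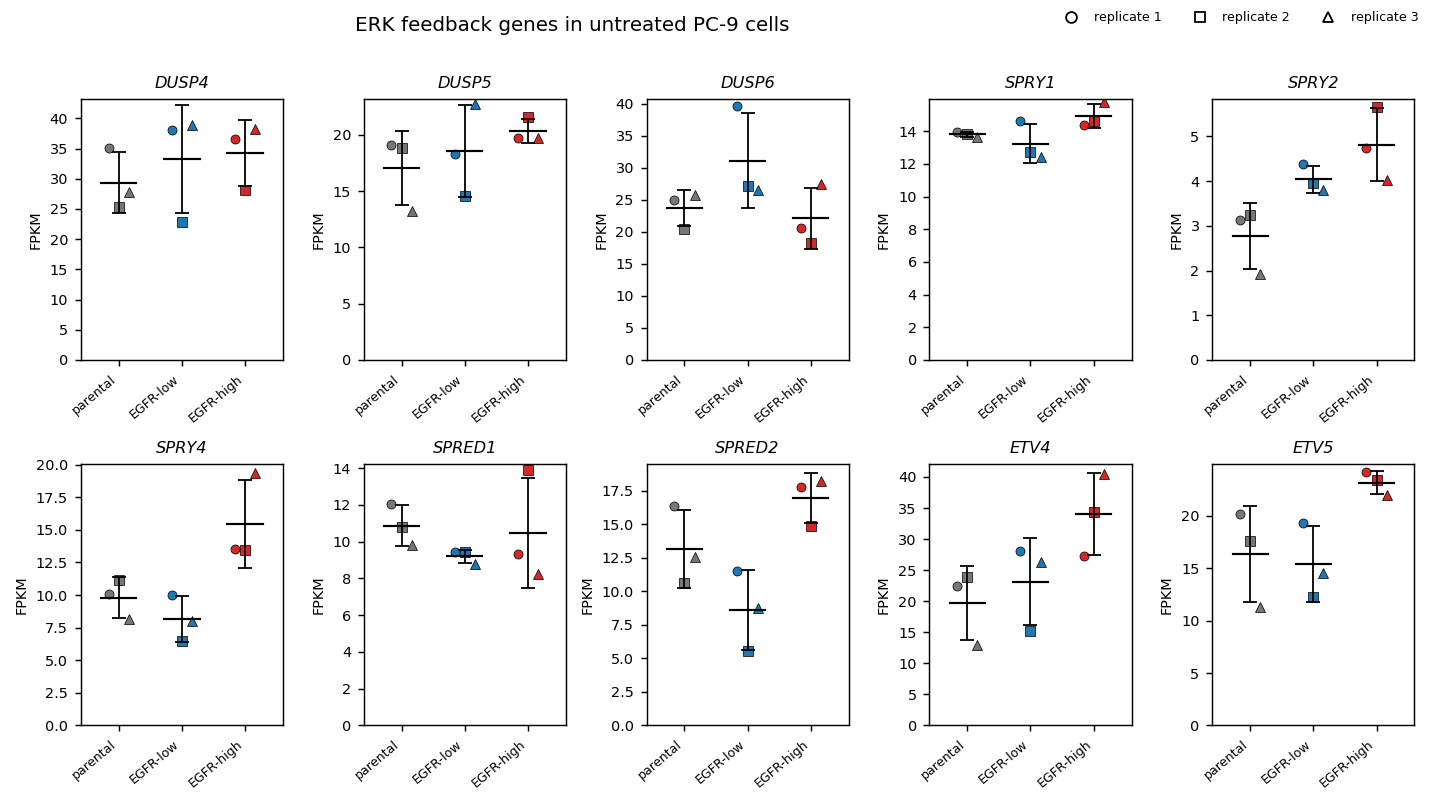
FPKM of the 10 genes in each untreated library, by group (parental, EGFR-low and EGFR-high on the x axis), with circles, squares and triangles for replicates 1, 2 and 3. Horizontal lines mark the mean and bars the SD (n = 3). SPRY4, SPRED2 and ETV5 lay lower in all EGFR-low libraries than in all EGFR-high libraries, and the other 7 genes overlapped. How many of all genes lay apart in this way was not counted, and none of the 10 genes passed the test between these groups.

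Among the phosphatases, DUSP6 (chr12:89347232-89353271, GRCh38) was at 39.6, 27.1 and 26.6 FPKM in EGFR-low cells, at 20.6, 18.3 and 27.5 FPKM in EGFR-high cells and at 25.01, 20.4 and 25.7 FPKM in parental cells. EGFR-low and EGFR-high libraries overlapped, and their log2 fold change was 0.47 (95% confidence interval -0.09 to 1.03, adjusted p = 0.50). All libraries of EGFR-low cells were above the parental ones, with a log2 fold change of 0.36 (-0.20 to 0.92) that did not pass the test. DUSP4 stood at 33.3 ± 9.0 FPKM in EGFR-low and 34.3 ± 5.5 FPKM in EGFR-high cells and DUSP5 at 18.5 ± 4.1 and 20.4 ± 1.1 FPKM (mean ± SD, n = 3), and the libraries of both genes overlapped.

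SPRY4, a Sprouty gene induced by growth factor signaling, was at 9.97, 6.49 and 8.0 FPKM in EGFR-low cells, at 13.5, 13.5 and 19.4 FPKM in EGFR-high cells and at 10.1, 11.2 and 8.13 FPKM in parental cells. All EGFR-high libraries lay above all others, and the log2 fold change from EGFR-high to EGFR-low was -0.84 (-1.39 to -0.29) without passing the test (adjusted p = 0.109). SPRY1 (chr4:123396795-123403760) ranged narrowly over the 9 untreated libraries, with 13.2 ± 1.2 FPKM in EGFR-low, 14.9 ± 0.8 FPKM in EGFR-high and 13.8 ± 0.1 FPKM in parental cells. SPRY2 (chr13:80335976-80340951) was the lowest of the 10 genes per length in each untreated group, at 4.04 ± 0.31 FPKM in EGFR-low, 4.81 ± 0.81 FPKM in EGFR-high and 2.77 ± 0.73 FPKM in parental cells.

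SPRED2 (chr2:65310851-65432637), which binds RAS pathway proteins at the membrane and limits RAF activation, was at 11.5, 5.58 and 8.78 FPKM in EGFR-low cells, at 17.8, 14.8 and 18.2 FPKM in EGFR-high cells and at 16.3, 10.6 and 12.5 FPKM in parental cells. Its EGFR-low and EGFR-high libraries did not overlap, and the log2 fold change of -0.94 (-1.56 to -0.33) had an adjusted p of 0.109. The replicate numbers of these groups were taken as pairs from correlations in the data, as the labels do not say that they are shared. The fits given so far did not use these pairs. With the number fitted as a block over all untreated libraries, SPRED2 passed the test (adjusted p = 0.0166) whereas SPRY4 did not (adjusted p = 0.0612). This made 1 of the 10 genes called, where 965 of the 11305 genes were. Deviations of parental replicate 3 did not correlate with those of number 3 in EGFR-low (r -0.092) or EGFR-high cells (-0.0023). SPRED1 overlapped between EGFR-low (9.21 ± 0.36 FPKM) and EGFR-high cells (10.5 ± 3.0 FPKM).

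The ETS factors pointed the same way without passing the test. ETV5 was at 19.4, 12.3 and 14.5 FPKM in EGFR-low cells against 24.2, 23.4 and 22.0 FPKM in EGFR-high cells, which did not overlap (log2 fold change -0.58, -1.17 to 0.01, adjusted p = 0.376). ETV4 was at 23.2 ± 7.0 FPKM in EGFR-low, 34.0 ± 6.6 FPKM in EGFR-high and 19.8 ± 6.0 FPKM in parental cells (log2 fold change from EGFR-high to EGFR-low -0.56, -1.26 to 0.13, adjusted p = 0.522).

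Against parental cells, none of the 10 genes passed the test in EGFR-low cells, where 1.60% of all genes did, or in EGFR-high cells, where 0.0708% did. At an unadjusted p under 0.05, 1668 and 1093 of all genes passed. For EGFR-high cells the fold change was above 0 (log2) for 8 of the 10 genes, with a median of 0.31 against 0.07 for all genes, and was highest for ETV4 (0.78, 0.09 to 1.48, adjusted p = 0.507). In EGFR-low cells it was above 0 for 5 of the 10, with a median of 0.03 against 0.06. These comparisons share their parental libraries.

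Between DMSO-treated EGFR-low and EGFR-high cells, 6 of the 10 genes were lower in EGFR-low cells and 2 were higher, where 20.7% and 31.1% of the 12236 genes tested were called lower and higher. DUSP4, DUSP6, SPRY1, SPRY4, ETV4 and ETV5 fell, SPRY2 and SPRED2 rose, and DUSP5 and SPRED1 did not pass the test. The median log2 fold change of the 10 genes was -1.43, that of all genes 0.12. The shift of all genes was removed by scaling each library to the median of its ratios, which brought that median to 0.0034 and the calls over all genes from 3807 higher and 2527 lower (60.1% higher) to 3177 and 3201 (49.8%). With this scaling, SPRY2 (log2 fold change 0.36, adjusted p = 0.0726) and SPRED2 (0.41, adjusted p = 0.10) lost their calls and DUSP5 (-0.94, adjusted p = 0.0362) was called lower. Without the 2 DMSO libraries that stood apart, 7 of the 10 genes were called, SPRY2 being lost, where 49.5% of all genes were. Without those numbered 1 there were 8, with DUSP5 gained and SPRY2 lost, where 58.1% of all genes were. With either EGFR-low replicate 3 or EGFR-high replicate 2 left out there were 5, and the share of all genes was also lower, at 40.4% and 41.2% against 51.8% with every library.

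**Figure D2:**
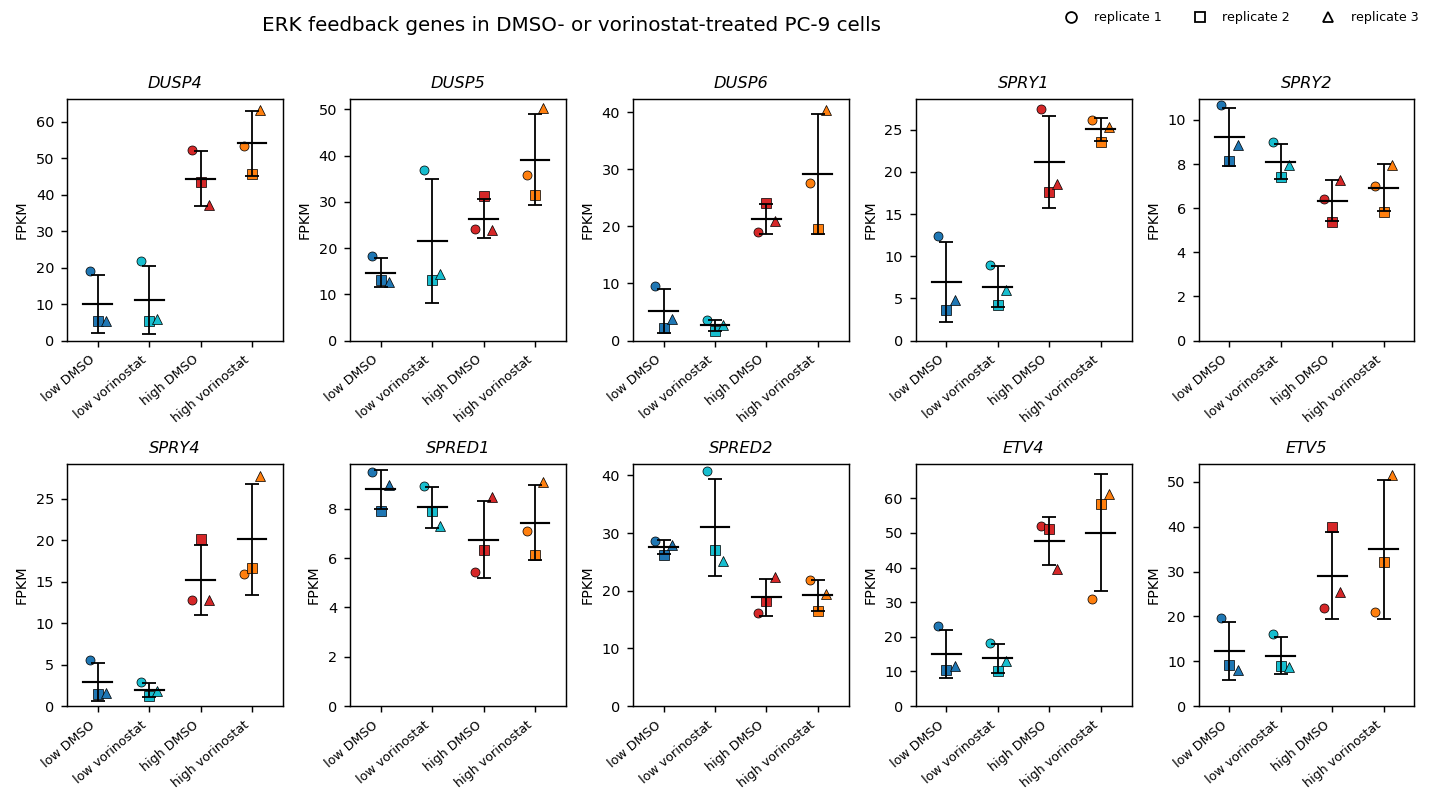
FPKM of the 10 genes in each library of the second experiment, by group on the x axis (EGFR-low and EGFR-high cells with DMSO or vorinostat), with circles, squares and triangles for replicates 1, 2 and 3. Horizontal lines mark the mean and bars the SD (n = 3). DUSP4, DUSP6, SPRY1, SPRY4, ETV4 and ETV5 lay lower in all 6 EGFR-low libraries than in all 6 EGFR-high libraries and SPRED2 lay higher in all of them. How many of all genes lay apart in this way was not counted. Between the populations 51.8% of all genes were called with DMSO and 59.0% with vorinostat. In both EGFR-low groups replicate 1 was the highest in every panel.

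DUSP6 was at 9.53, 2.25 and 3.76 FPKM in EGFR-low DMSO cells and at 19.0, 24.2 and 20.9 FPKM in EGFR-high DMSO cells. The groups did not overlap, and among the EGFR-low libraries replicate 1 was the highest. The mean was 4.12-fold higher in EGFR-high cells and the log2 fold change was -2.03 ± 0.38 (SE, adjusted p = 0.0012). Without the 2 DMSO libraries that stood apart it was -2.51 (adjusted p = 0.00024), and without those numbered 1 it was -2.58.

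DUSP4 (chr8:29333064-29350668), a nuclear ERK phosphatase, was at 19.1, 5.38 and 5.39 FPKM in EGFR-low DMSO cells and at 52.3, 43.6 and 37.2 FPKM in EGFR-high DMSO cells. Replicate 1 of the EGFR-low cells again lay between the other libraries of the group and the EGFR-high cells. The EGFR-high mean was 4.46-fold higher and the log2 fold change of -2.26 ± 0.50 (adjusted p = 0.0028) became -2.93 without the 2 DMSO libraries and -2.69 without those numbered 1. DUSP5 (chr10:110497838-110511544) was at 18.3, 13.0 and 12.7 FPKM against 24.1, 31.3 and 23.8 FPKM, which did not overlap, and its log2 fold change of -0.81 (-1.53 to -0.10) just missed the threshold (adjusted p = 0.055). It was called without the libraries numbered 1 (-1.03, adjusted p = 0.0053) and without EGFR-low replicate 1 alone (-0.97, adjusted p = 0.0436), but not without the 2 DMSO libraries (-1.04, adjusted p = 0.0596).

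SPRY4 (chr5:142310427-142326455) showed the highest fold of the Sprouty genes. It was at 5.61, 1.49 and 1.61 FPKM in EGFR-low DMSO cells and at 12.8, 20.1 and 12.8 FPKM in EGFR-high DMSO cells, without overlap. The EGFR-high mean was 5.24-fold higher and the log2 fold change was -2.18 ± 0.37 (adjusted p = 0.00067). It was -2.74 without the 2 DMSO libraries and also without those numbered 1.

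SPRY1 was at 12.4, 3.65 and 4.78 FPKM in EGFR-low DMSO cells and at 27.4, 17.6 and 18.6 FPKM in EGFR-high DMSO cells. Its libraries did not overlap and the log2 fold change was -1.62 ± 0.35 (adjusted p = 0.0027), which became -2.15 without the 2 DMSO libraries and -1.88 without those numbered 1. SPRY2 went the other way, with 10.7, 8.13 and 8.87 FPKM in EGFR-low DMSO cells and 6.39, 5.37 and 7.26 FPKM in EGFR-high DMSO cells. The groups did not overlap and the log2 fold change was 0.48 ± 0.16 (adjusted p = 0.0223). This call was lost in each of 5 fits with fewer libraries, namely those lacking EGFR-low replicate 1 (adjusted p = 0.0849), EGFR-low replicate 3 (0.0505), EGFR-high replicate 2 (0.0928), the 2 DMSO libraries (0.0513) or those numbered 1 (0.0934).

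SPRED2 was at 28.6, 26.3 and 27.9 FPKM in EGFR-low DMSO cells and at 16.1, 18.3 and 22.3 FPKM in EGFR-high DMSO cells. All EGFR-low libraries lay above all EGFR-high libraries, the reverse of the untreated order, and the log2 fold change was 0.53 ± 0.18 (adjusted p = 0.0283). The call was kept without the 2 DMSO libraries (0.63, adjusted p = 0.0399) and without those numbered 1 (0.40, adjusted p = 0.0346), and was lost without any 1 of EGFR-low replicates 1, 2 and 3 and EGFR-high replicates 1 and 2 (adjusted p from 0.0557 to 0.107). SPRED1 (chr15:38252326-38357249) overlapped, at 8.79 ± 0.80 FPKM in EGFR-low and 6.75 ± 1.56 FPKM in EGFR-high cells, and was not called (log2 fold change 0.35, adjusted p = 0.110). Without EGFR-high replicate 3, a library that stood apart, it was called higher in EGFR-low cells (0.51, adjusted p = 0.0300). It was not called without both of the DMSO libraries (0.46, adjusted p = 0.0749) or without those numbered 1 (0.18, adjusted p = 0.460).

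ETV4 (chr17:43527844-43579620) was at 23.1, 10.5 and 11.5 FPKM in EGFR-low DMSO cells and at 52.1, 51.3 and 39.7 FPKM in EGFR-high DMSO cells. Its groups were well apart, with a log2 fold change of -1.68 ± 0.32 (adjusted p = 0.0013), or -2.14 without the 2 DMSO libraries and -1.94 without those numbered 1. ETV5 (chr3:186046308-186110318) was at 19.8, 9.16 and 7.96 FPKM against 21.9, 40.02 and 25.5 FPKM. The highest EGFR-low library nearly reached the lowest EGFR-high library, and the log2 fold change of -1.24 ± 0.39 (adjusted p = 0.0187) was no longer called without EGFR-low replicate 2 (adjusted p = 0.0688), EGFR-low replicate 3 (0.0798) or EGFR-high replicate 2 (0.0809). It was -1.68 without the 2 DMSO libraries and -1.79 without those numbered 1.

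With vorinostat in both populations, EGFR-low cells had 7 of the 10 genes lower than EGFR-high cells and 1 higher, where 22.8% and 36.2% of all genes were. DUSP4, DUSP5, DUSP6, SPRY1, SPRY4, ETV4 and ETV5 were lower, SPRED2 was higher, and SPRY2 and SPRED1 did not pass the test. The median log2 fold change was -1.64 against 0.16 for all genes. Median-of-ratios scaling brought the latter to -0.00067 and the calls from 4427 higher and 2795 lower (61.3% higher) to 3617 and 3591 (50.2%). SPRED2 lost its call under this scaling (0.47, adjusted p = 0.0589), the sign of SPRED1 changed from 0.11 to -0.04, and the 7 lower genes were still called. Without the libraries numbered 1 the same 8 genes were called, where 63.7% of all genes were against 59.0% with every library. The log2 fold changes were then -3.22 for DUSP6, -3.17 for SPRY4, -3.03 for DUSP4, -2.29 for ETV4, -2.09 for ETV5, -2.08 for SPRY1 and 0.52 for SPRED2. Without the 2 DMSO libraries the estimates of this comparison stay as they are by construction, and the same 8 genes were called, where 56.9% of all genes were.

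DUSP6 was at 3.55, 1.65 and 2.72 FPKM in EGFR-low vorinostat cells and at 27.5, 19.6 and 40.4 FPKM in EGFR-high vorinostat cells. The EGFR-high mean was 11.1-fold higher and the log2 fold change was -3.03 ± 0.38 (adjusted p = 6.51e-05). SPRY4 was at 2.87, 1.25 and 1.80 FPKM against 15.9, 16.6 and 27.8 FPKM, a 10.2-fold difference in means and a log2 fold change of -2.82 ± 0.37 (adjusted p = 7.88e-05). In neither gene did the groups come near each other.

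DUSP4 was at 21.8, 5.48 and 5.90 FPKM in EGFR-low vorinostat cells and at 53.5, 45.6 and 63.3 FPKM in EGFR-high vorinostat cells (log2 fold change -2.44 ± 0.50, adjusted p = 0.0013). EGFR-low vorinostat replicate 1 was as high as EGFR-low DMSO replicate 1. The 33 genes described above were chosen to be at 0.1 FPKM or less in this vorinostat library. Their median of 0.261% of the EGFR-high level there was bounded by that choice and cannot be set against that of EGFR-low DMSO replicate 1. SPRY1 was at 8.98, 4.20 and 5.97 FPKM against 26.2, 23.6 and 25.3 FPKM, without overlap (log2 fold change -1.87 ± 0.35, adjusted p = 0.00076). ETV4 was at 18.3, 10.2 and 12.9 FPKM against 30.8, 58.3 and 61.3 FPKM and its log2 fold change was -1.76 ± 0.32 (adjusted p = 0.00064).

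ETV5 was at 16.1, 9.01 and 8.68 FPKM in EGFR-low vorinostat cells and at 21.1, 32.2 and 51.7 FPKM in EGFR-high vorinostat cells (log2 fold change -1.51 ± 0.39, adjusted p = 0.0054). DUSP5 was at 37.0, 13.1 and 14.5 FPKM against 35.8, 31.4 and 50.2 FPKM, so that the first EGFR-low library lay inside the range of the EGFR-high libraries. Its log2 fold change was -0.96 ± 0.33 (adjusted p = 0.0243), was -1.46 without the libraries numbered 1 (adjusted p = 0.00084), and was not called without EGFR-low replicate 2 (adjusted p = 0.106), EGFR-low replicate 3 (0.096) or EGFR-high replicate 3 (0.0916). SPRED2 was at 40.7, 27.2 and 25.1 FPKM against 21.8, 16.4 and 19.5 FPKM, again without overlap and with EGFR-low the higher (log2 fold change 0.64 ± 0.18, adjusted p = 0.0103).

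**Figure D3:**
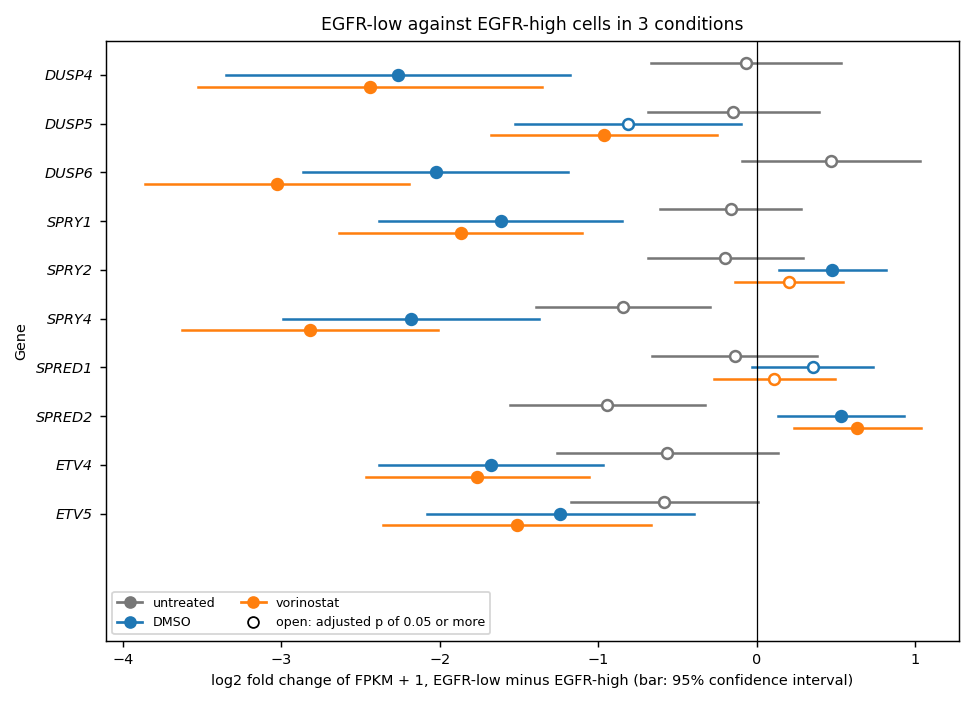
Log2 fold change of FPKM + 1 (x axis) of each gene (y axis) between EGFR-low and EGFR-high cells, untreated, with DMSO and with vorinostat. Points are estimates and bars 95% confidence intervals from limma, and filled points have an adjusted p under 0.05. DUSP6 lay at 0.47 in untreated cells and at -2.03 and -3.03 in the second experiment, and SPRED2 at -0.94, 0.53 and 0.64.

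The effect of vorinostat within each population was read against DMSO. None of the 10 genes passed the limma test in EGFR-low cells, where 0.00% of all genes were called, or in EGFR-high cells, where 0.00% were. At an unadjusted p under 0.05, 115 and 409 of the 12236 genes passed. In EGFR-low cells the log2 fold change was above 0 for 4 of the 10 genes (median -0.07 against -0.03 for all genes), and in EGFR-high cells for 10 of 10 (median 0.23 against -0.06).

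DUSP6 was the gene with the widest difference between the populations in this respect. Its log2 fold change with vorinostat was -0.62 (-1.46 to 0.21) in EGFR-low and 0.38 (-0.45 to 1.22) in EGFR-high cells, and the difference between these responses was -1.0 (-2.18 to 0.18, adjusted p = 0.999). Without the 2 DMSO libraries that stood apart the difference was -0.52, and without those numbered 1 it was -0.64. No gene was called for vorinostat in either population, or for this difference, in these fits. For this difference 0.00% of all genes, including the 10, were called by limma, and 215 of 12236 passed an unadjusted p under 0.05. The intervals of the other 9 genes for the response reached from -1.08 to 1.19 at their widest in EGFR-low cells and from -0.80 to 1.37 in EGFR-high cells, so that changes of about that size could not be resolved. DUSP5 was higher in all vorinostat than in all DMSO libraries of EGFR-high cells (39.1 ± 9.8 against 26.4 ± 4.2 FPKM) without passing the test (log2 fold change 0.54, -0.18 to 1.25). Its lowest vorinostat library lay barely above its highest DMSO library. The other 9 genes overlapped between the treatments in EGFR-high cells, and all 10 did in EGFR-low cells.

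Over the tested genes, log2(FPKM + 1) of EGFR-low vorinostat replicates 2 and 3 correlated with that of the DMSO library of the same number at 0.997 and 0.996. EGFR-low vorinostat replicate 1 correlated with DMSO replicates 2 and 3 at 0.974 and 0.973, and with DMSO replicate 1, which stood apart, at 0.953. In EGFR-high cells the libraries of the same number correlated at 0.963, 0.990 and 0.963. CDKN1A, a gene that histone deacetylase inhibitors typically induce, was at 27.6, 15.3 and 17.5 FPKM in EGFR-low vorinostat cells against 18.6, 17.5 and 20.1 FPKM with DMSO. In EGFR-high cells it was at 21.7, 1.79 and 3.25 FPKM against 3.62, 3.17 and 8.93 FPKM, highest in vorinostat replicate 1. H1F0, a linker histone gene known for the same response, was at 651, 488 and 614 FPKM in EGFR-low vorinostat cells against 535, 490 and 637 FPKM, and at 217, 213 and 472 FPKM in EGFR-high vorinostat cells against 219, 231 and 291 FPKM. Neither gene was called with vorinostat in either population. Whether the drug was active in these cells, and whether each library carries the label of its own treatment, was not tested and cannot be told apart from an absent response, so that the vorinostat groups are the libraries so labelled.

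Set side by side over the 7 groups, the genes differed in where their lowest levels lay. The experiments were normalized separately and were not tested against each other. Mean DUSP6 was at 31.1 FPKM in untreated EGFR-low, 29.2 in EGFR-high vorinostat, 23.7 in parental, 22.1 in untreated EGFR-high, 21.3 in EGFR-high DMSO, 5.18 in EGFR-low DMSO and 2.64 in EGFR-low vorinostat cells. The ranges of the first 5 groups in this order overlapped with those of their neighbours, and so did the ranges of the last 2. SPRY4 had the same 2 groups at the bottom, at 2.91 and 1.97 FPKM, against 8.15 FPKM in untreated EGFR-low cells and 9.80 to 20.1 FPKM in the other 4. SPRED2 was the reverse, highest in EGFR-low cells with vorinostat (31.0 ± 8.5 FPKM) and DMSO (27.6 ± 1.2 FPKM) and lowest in untreated EGFR-low cells (8.63 ± 2.98 FPKM). SPRY2 was likewise highest in these 2 groups, at 9.23 ± 1.32 FPKM with DMSO and 8.11 ± 0.80 FPKM with vorinostat.

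Within the second experiment the genes separated into a set of 7 (DUSP4, DUSP5, DUSP6, SPRY1, SPRY4, ETV4 and ETV5) and a set of 3 (SPRY2, SPRED1 and SPRED2). These sets were drawn after the values were seen. Across its 12 libraries, which come from 4 groups and include the libraries that stood apart, Pearson's r of log2(FPKM + 1) was 0.78 to 0.99 over the 21 pairs within the first set, 0.73 to 0.84 within the second and -0.75 to -0.13 between them. Across the 9 untreated libraries the same pairs ranged from -0.28 to 0.89, from 0.12 to 0.19 and from -0.55 to 0.82. The second experiment spans both populations, between which 51.8% of all genes were called with DMSO, and many other genes reached such an r. By r with DUSP6 there, SPRY4 ranked 1, SPRY1 458, ETV4 648, DUSP4 668, ETV5 1049 and DUSP5 2372 of 12235 genes.

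The genes most like DUSP6 by Pearson's r over the 12 libraries of the second experiment were SPRY4 (0.988), PRKAA2 (0.987), FOXO3 (0.987), DYM (0.986) and EGFR (0.986), out of 12235 genes. Over the 9 untreated libraries they were QKI (0.941), GCLC (0.930), TCF4 (0.925), SPECC1 (0.913) and ZNF45 (0.910), out of 11304. None of the 10 genes stood among the latter, and there EGFR and DUSP6 gave an r of -0.43. The libraries of the second experiment all come from cells sorted by EGFR, so that r there includes the difference between the populations. In that experiment DUSP4, with an r of 0.941, ranked 668. The plot of DUSP6 against EGFR shows both experiments.

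**Figure D4:**
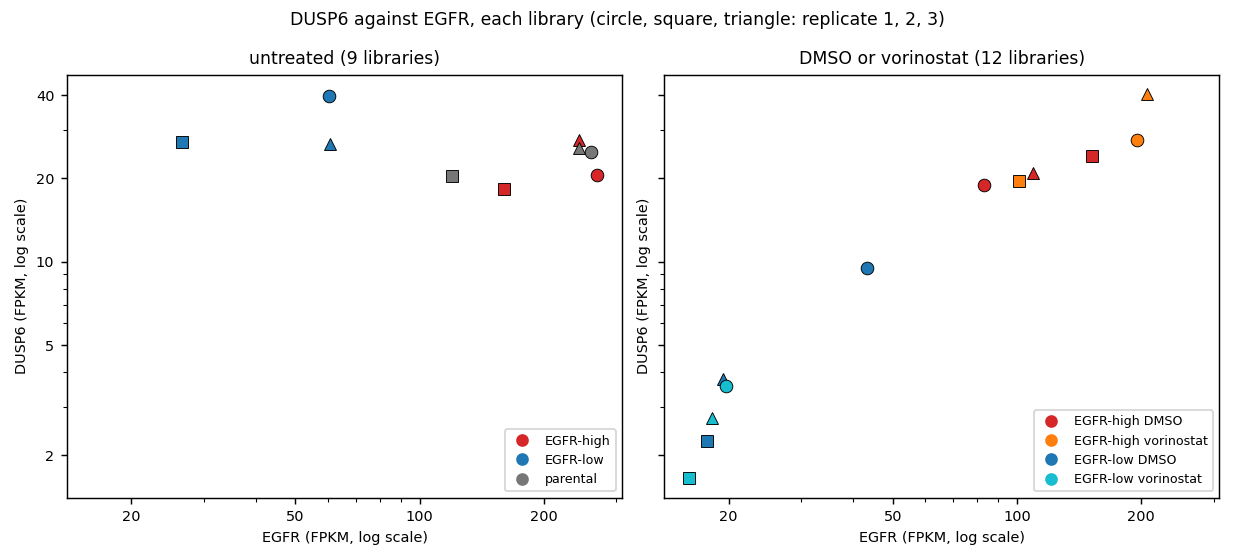
DUSP6 (y axis) against EGFR (x axis), both in FPKM on log scales, for each of the 9 untreated libraries (left) and the 12 libraries of the second experiment (right), with colors for groups and circles, squares and triangles for replicates 1, 2 and 3. On the left, EGFR-low libraries with 26.5 to 60.6 FPKM of EGFR held 26.6 to 39.6 FPKM of DUSP6. On the right, EGFR-low libraries with 16.1 to 43.3 FPKM of EGFR held 1.65 to 9.53 FPKM, and EGFR-low DMSO replicate 1 lay between the populations.

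Other genes of the pathway were read as lists. Of 10 further members of the same families (DUSP1, DUSP2, DUSP7, DUSP8, DUSP9, DUSP10, DUSP16, SPRY3, SPRED3 and ETV1), 7 were tested in the second experiment, and with DMSO EGFR-low cells had 2 of them higher and 2 lower. DUSP9, a cytoplasmic ERK phosphatase (log2 fold change 2.18 ± 0.30, adjusted p = 0.00033), and DUSP10, which acts mainly on the stress kinases JNK and p38 (1.83 ± 0.34, adjusted p = 0.0011), were higher, and ETV1, the third factor of the ETV4 and ETV5 family, was lower (-1.90 ± 0.50, adjusted p = 0.0083). The median of this list was 0.13 against 0.12 for all genes, and with vorinostat 2 were again higher and 2 lower. In untreated cells none of the 5 that were tested was called.

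Of 18 RAS-ERK cascade genes, all tested, 6 were higher and 2 lower in EGFR-low cells with DMSO (median log2 fold change 0.16), 9 were higher and 1 lower with vorinostat (0.32), and none was called in untreated cells (0.06). With DMSO these included NRAS (-1.14 ± 0.15, adjusted p = 0.00033), which was lower, and the kinase genes ARAF (1.00 ± 0.18, adjusted p = 0.00081) and KSR1, a scaffold of RAF and MEK (0.97 ± 0.24, adjusted p = 0.0053), which were higher.

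Of 10 other genes that ERK is known to induce, 2 were higher and 5 lower in EGFR-low cells with DMSO, with a median of -0.79, and 1 was higher and 6 lower with vorinostat, with a median of -0.93. EGR1, an immediate early transcription factor, was higher (2.68 ± 0.64, adjusted p = 0.0046), whereas HBEGF, a ligand of EGFR (-2.64 ± 0.52, adjusted p = 0.0015), and the ephrin receptor gene EPHA4 (-1.47 ± 0.26, adjusted p = 0.00078) were lower. In untreated cells 9 of this list were tested and 1 was called, the AP-1 factor FOSL1, which was lower in EGFR-low cells (-1.84 ± 0.37, adjusted p = 0.0184). The counts of these lists stand against the 20.7% and 31.1% of all genes that were lower and higher with DMSO, the 22.8% and 36.2% with vorinostat, and the 3.81% called in untreated cells.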

How the data were processed

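Polyadenylated RNA of 21 libraries (7 groups of 3) was made into libraries with a Roche Kapa mRNA kit. Per the labels, the submitters' processing notes name STAR 2.5.1b, Cufflinks 2.2.1 and hg19. The deposited values were read as FPKM, made by the authors with Cufflinks. The values imply this unit, as they are not whole and do not sum to read totals, although the naming calls them counts. Relative depth was read from the steps between values under 0.1 FPKM of 2 libraries (22.7 to 31.4% of these ratios fell within 0.02 log2 units of ratios of small whole numbers). Estimates from 2 reference libraries differed by at most 0.02 log2 units. Library sizes are otherwise unknown, so no counting interval is given.

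The 10 genes and all gene lists were chosen with earlier results of these data known. Genes reaching 1 FPKM in 3 or more libraries of an experiment, which all 10 genes did, were tested with limma 3.58.1 in R 4.3.3 (lmFit, eBayes with a trend) on log2(FPKM + 1), which understates changes of low genes. One mean per group was fitted, each experiment on its own, and p-values were adjusted over all genes of a comparison. An exact two-sided permutation test of 3 against 3 libraries cannot give a p under 0.1 and decided nothing. By rule, all 10 genes were named, as were EGFR, CDKN1A, H1F0, up to 3 called genes of each other list with the largest change, and the 5 genes most like DUSP6. Alternatives were a pseudocount of 0.1, no filter, median-of-ratios scaling, the replicate number as a block, each library left out, and 2 sets of libraries left out, the last chosen after seeing the data. Nothing in the labels says that replicate numbers are shared, and p-values measure the spread between these samples. Each library was expressed as its deviation from the mean of its group. Deviations sharing a number correlated at 0.343, 0.730 and 0.689 between the untreated sorted populations, at 0.353, 0.351 and 0.163 between the populations with vorinostat, and at 0.267, 0.302 and 0.329 between both treatments of EGFR-low cells, so the numbers were taken as pairs there. The main fits, with their calls and p-values, did not use these pairs, which entered only in the alternative with the replicate number as a block. Gene positions are those of GENCODE on GRCh38. Python 3.11.15, pandas 2.3.3, scipy 1.17.1 and matplotlib 3.10.9 were also used.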

Additional observations from a re-analysis of the deposited data

Results flagged for a closer look

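SPRED2 was flagged because its libraries moved in opposite directions in the 2 experiments. Every untreated EGFR-low library lay below every untreated EGFR-high library (log2 fold change -0.94), without passing the limma test (adjusted p = 0.109). The order was the reverse, again without overlap, with DMSO (0.53) and with vorinostat (0.64). The DMSO call was lost in 6 of 12 alternatives and the vorinostat call in 1 of 12. How many of all genes reversed in this way was not counted. The experiments were normalized separately, and the difference between them was not tested. With median-of-ratios scaling the later values were 0.41 and 0.47 and were not called. In the second experiment SPRED2 also stood above its untreated EGFR-low level in all EGFR-low libraries (25.1 to 40.7 FPKM against 5.58 to 11.5 FPKM). No other of the 10 genes was flagged.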

How the results depend on the processing

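The number of the 10 genes called was within 1.5 times its main value under all alternatives except the following. Between the untreated sorted populations it went from 0 to 1 with the replicate block. Between EGFR-low and EGFR-high cells with DMSO it was 8 and ranged from 5 to 9 when 1 library was left out (40.2 to 50.6% of all genes were then called, against 51.8%), the 5 coming when either EGFR-low replicate 3 or EGFR-high replicate 2 was missing. The replicate block changed no other call of the 10 genes. The cause was not tested. Of the 16 calls of single genes, 11 were kept under every alternative and none changed sign. The others were SPRY2, SPRED2 and ETV5 with DMSO and SPRED2 and DUSP5 with vorinostat.

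Calls over all genes moved more. Between the untreated sorted populations they were 431, and were 660 without the filter, 965 with the block and 174 to 286 with 1 library left out. Between EGFR-low and parental cells they were 181, and were 331, 525 and 33 to 254. Between EGFR-high and parental cells they were 8, and were 15 without the filter and 2 to 8 with 1 library left out. Without the filter, 1 gene was called for vorinostat in EGFR-low cells and 1 for the difference in response. In the comparisons whose numbers were not taken as pairs, 2 to 4 of 6 libraries correlated best with their own number, a hint from the data only. Unknown fragment numbers limit what can be said of values near 1 FPKM, such as SPRY4 in EGFR-low cells.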
